A study of Mus musculus with 30 samples.

Results

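The genes described here are 6 genes of neurotrophin signalling: the ligands Bdnf and Ntf3, the receptor tyrosine kinases Ntrk2 and Ntrk3, the low affinity receptor Ngfr and the sorting receptor Sort1. They were taken as the rows of the deposited table whose Ensembl identifier carries one of these symbols, and all 6 were found among the 21412 genes listed. RNA of the hippocampus of 30 male BALB/c mice was sequenced, 1 library per mouse and 5 mice in each of 6 groups. They arrived at 2 to 3 weeks of age and were housed singly. Ctr mice ate a purified feed with cysteine and no methylmercury (MeHg) for 11 weeks. MeHg bound to cysteine was added at 0.28 mg per kg feed for LD and at 5 mg per kg feed for HD mice over the same time. The Se_Ctr, Se_LD and Se_HD mice are labelled as exposed by mouth to selenium with no, low dose or high dose mercury, and their selenium dose is not given in the sources used here. The question of the comparisons is whether either dose of MeHg, selenium, or both together changed the amount of RNA of these genes.

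Neurotrophins are secreted growth factors that keep neurons alive and shape their synapses. They are made as proforms, which bind p75NTR (the product of Ngfr) together with sortilin (the product of Sort1), and are cut to mature forms, which bind Trk receptor kinases. BDNF acts through TrkB (Ntrk2) and neurotrophin 3 through TrkC (Ntrk3). In the hippocampus BDNF is made chiefly by excitatory neurons, its RNA follows neuronal activity, and it is known for its part in long-term potentiation and memory. TrkB also has short forms without the kinase, which are abundant in astrocytes.

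On the NCBIM37 build used for the deposited counts, Bdnf (ENSMUSG00000048482) lies on the plus strand at chr2:109514857-109567204 and Ntrk2 (ENSMUSG00000055254) on the plus strand at chr13:58907957-59235331. Sort1 (ENSMUSG00000068747) is on the plus strand at chr3:108087009-108164429. The minus strand carries Ntf3 (ENSMUSG00000049107, chr6:126051431-126116762), Ntrk3 (ENSMUSG00000059146, chr7:85337248-85723294) and Ngfr (ENSMUSG00000000120, chr11:95430132-95449049). All 6 are protein coding genes, and reads were counted over the exons of each gene as 1 value. The annotation holds 10 transcripts of Bdnf, 5 of Ntrk2, 4 each of Ntrk3 and Sort1, 2 of Ntf3 and 1 of Ngfr, so the full-length and short forms of TrkB and the alternative first exons of Bdnf share 1 count. Sort1 alone overlaps the exons of another gene, the antisense Gm12523, which had a mean of 0.540 normalized counts.

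The promoter stretches of the ligands are shown because HD library 21 held both the highest Bdnf value of the 30 mice, 963 normalized counts, and the lowest Ntf3 value, 7.35. The sequences are RefSeq windows of the 250 bases before an annotated start on GRCm38.p6, a later build than that of the counts. There were 7 windows for Bdnf, 2 for Ntf3 and 1 each for Ngfr and Ntrk2. The letters TGACG, the core of the site of the activity-regulated factor CREB, were searched on both strands and were found in 1 of the 7 Bdnf windows and in none of the other 4. They are present in 17.8% of the 32851 windows of the same length. CACGTG, the E-box bound by USF factors, reads the same on both strands, stood in 1 of the 2 Ntf3 windows and is present in 6.02% of all windows. The matches, which do not overlap, are in capitals in both sequences, each given 5′ to 3′ on its gene's strand, chr2:109692186-109692435 (plus) for Bdnf and chr6:126166745-126166994 (minus) for Ntf3. The Bdnf match begins 35 bases and the Ntf3 match 231 bases before the start.
Bdnf: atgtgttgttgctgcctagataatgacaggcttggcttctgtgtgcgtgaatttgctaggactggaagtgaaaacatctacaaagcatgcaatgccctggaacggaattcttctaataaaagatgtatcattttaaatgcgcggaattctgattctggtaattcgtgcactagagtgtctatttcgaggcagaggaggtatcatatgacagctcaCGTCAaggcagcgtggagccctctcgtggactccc
Ntf3: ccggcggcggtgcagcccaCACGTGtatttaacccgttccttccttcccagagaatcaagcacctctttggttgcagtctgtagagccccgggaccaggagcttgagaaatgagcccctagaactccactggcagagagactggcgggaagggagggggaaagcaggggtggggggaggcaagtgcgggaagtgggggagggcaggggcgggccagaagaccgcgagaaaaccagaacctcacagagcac
A match of these letters describes the sequence only, and occupancy by a factor was not measured.

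Between 5768208 and 11510521 reads were counted on genes per library, with a median of 7119788 in Ctr and 10159514 in HD mice. Marker genes of the hippocampal fields were present: 7 of 7 dentate gyrus, 5 of 6 CA1, 5 of 5 CA2 and 6 of 7 CA3 markers averaged 10 normalized counts or more. Of 7 markers of basal forebrain cholinergic neurons, the cells of the brain best known for Ngfr, 5 were listed and 1 reached that average. Markers of choroid plexus summed to 279 to 38047 normalized counts per mouse. After the values had been seen, 3 libraries were picked to be left out together, Ctr library 13 for its Ntrk3, HD library 21 for its Bdnf and Ntf3 and Se_Ctr library 28 for its Sort1 value, and they are called the libraries that stood apart. Other libraries, such as HD library 15 for Bdnf and Ntrk2, also held the highest or lowest value of a member and were kept. HD library 21 held the highest value of the 30 mice for 12.9% of the 14296 genes with a mean of at least 10 and the lowest for 11.1%. In bulk tissue, fewer cells of a type and less RNA per cell cannot be told apart.

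The levels of the 6 genes, compared as normalized counts per kb of exon, covered a range from 619 for Sort1 to 2.70 for Ngfr. Per kb, Sort1 RNA stood highest, with 619 ± 71.5 normalized counts (SD, n = 30), above 97.4% of the 21326 genes with a known length. Ntrk2 followed at 383 ± 32.8 normalized counts per kb and lay below Sort1 in 30 of 30 mice. The order of these genes rests on the length, taken over all annotated exons, of 7560 bases for Sort1 and 15094 for Ntrk2. Before the division Ntrk2 had the higher mean, 5776 against 4683 normalized counts. Bdnf, at 91.6 ± 20.2 normalized counts per kb, was the more abundant ligand, and Ntrk3 stood close to it at 75.5 ± 12.6. These neighbours were the only ones whose order differed between mice, with Bdnf above Ntrk3 in 26 of 30. Ntf3 had 24.6 ± 6.26 and Ngfr 2.70 ± 1.30 normalized counts per kb. Ngfr rested on 2 to 26 reads per library and Ntf3 on 9 to 69, so counting error alone gave a coefficient of variation of 28.2% to 39.5% in the groups for Ngfr and 15.0% to 19.7% for Ntf3, against 3.95% to 4.81% for Bdnf.

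**Figure D1:**
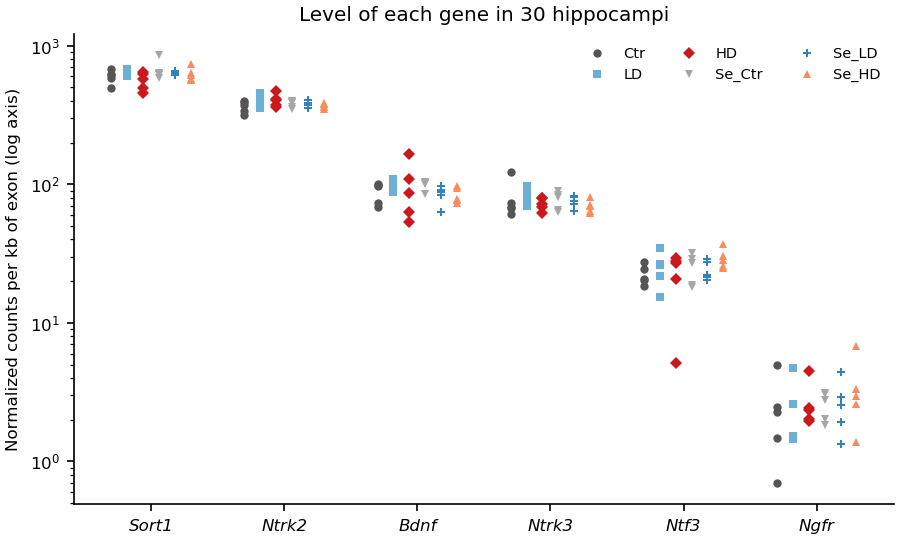
Normalized counts per kb of exon on a log axis for the 6 genes, 1 point per mouse, with the 6 groups side by side within each gene. Sort1 lay highest, near 619 on average, Ngfr lowest, near 2.70, and 1 HD mouse fell far below the others for Ntf3.

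Bdnf, the main neurotrophin of the adult hippocampus, did not differ between Ctr, LD and HD mice beyond the spread between mice. The HD group was spread far more widely than any other. Ctr mice had Bdnf normalized counts of 403, 575, 425, 568 and 588. In LD mice they were 512, 642, 568, 631 and 577. The 5 HD mice gave 504, 367, 315, 963 and 635. The HD values held both the highest value of all 30 mice, 963 in library 21, and the lowest, 315 in library 15, and they enclosed the Ctr and LD values on both sides. Means were 512 ± 89.8 in Ctr, 586 ± 52.6 in LD and 557 ± 259 in HD mice (SD, n = 5). Relative to Ctr, the log2 difference was 0.21 in LD (95% interval -0.23 to 0.65) and 0.02 in HD mice (-0.42 to 0.46), and exact two-sided permutation tests gave p = 0.198 and p = 0.960. The HD result rests on single mice at both ends: with each mouse left out in turn, the difference between HD and Ctr ran from -0.20 to 0.20. That between HD and LD, -0.19 with all mice, ran from -0.41 to -0.01. The lowest values were those without library 21 and the highest those without library 15. None of these differences passed the rule for a change.

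In the selenium groups Bdnf was lower with either dose of mercury. Se_Ctr mice had 597, 594, 494, 611 and 587 normalized counts. The Se_LD values were 528, 488, 569, 511 and 372. Those of Se_HD mice were 565, 454, 429, 549.7 and 455. All 5 Se_LD and all 5 Se_HD mice lay below the Se_Ctr median of 594, but the groups overlapped, since Se_Ctr library 16 had 494. The mean fell from 577 ± 46.7 in Se_Ctr to 494 ± 74.2 in Se_LD mice (log2 difference -0.23, SE 0.10) and to 490.3 ± 62.1 in Se_HD mice (-0.24, SE 0.10). A gene was taken as changed when limma's F test over the groups of the fit and the contrast both had an unadjusted p under 0.05, and Bdnf passed this rule in both contrasts, which share the Se_Ctr mice. In Se_LD against Se_Ctr 1.46% and in Se_HD against Se_Ctr 2.06% of the 19679 genes tested passed it, and the limma p of Bdnf adjusted over all genes was 1.00 in both. Exact permutation tests gave p = 0.0635 for Se_LD and p = 0.0556 for Se_HD. Both calls were lost without any 1 of Se_Ctr libraries 4, 10, 22 and 28 (log2 differences of -0.23 to -0.21) and with edgeR (-0.22 and -0.23) or DESeq2 (-0.23 and -0.23). The Se_LD call was also lost without Se_LD library 11 (-0.23), 23 (-0.25) or 29 (-0.14), and the Se_HD call without Se_HD library 12 (-0.21), 18 (-0.19) or 30 (-0.21). Beside these values, the 9 reactive astrocyte markers summed to 2745 to 3766 normalized counts in Se_Ctr, 2444 to 3308 in Se_LD and 3553 to 4417 in Se_HD mice, and the 7 excitatory neuron markers to 46099 to 71614, 43895 to 63700.4 and 45906 to 58119.6. In the same order of groups, the 9 meninges and fibroblast markers summed to 3563 to 7757, 2273 to 9295 and 7484 to 19474. The 9 choroid plexus markers summed to 6273 to 21362, 279 to 38047 and 9414 to 35007. The part of these markers in the result was not tested. At the same labelled dose, Se_LD mice were below LD mice by a log2 difference of -0.26 (exact permutation p = 0.0556, limma, adjusted p = 1.00), with 3 of 5 Se_LD mice below all LD mice.

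Ntf3, which encodes neurotrophin 3, had a median of 37.2 normalized counts and a coefficient of variation of 25.4% over the 30 mice, and its lowest value was again in HD library 21. Normalized counts of Ntf3 were 35.0, 29.4, 39.1, 26.5 and 29.3 in Ctr mice. LD mice had 49.6, 31.1, 37.7, 21.9 and 37.6. The HD values were 29.7, 38.3, 41.7, 7.35 and 40.1. Library 21, with 9 reads, was the lowest of all 30 mice, and the other 4 HD mice lay within the range of the LD mice. Se_Ctr mice had 41.4, 26.6, 45.8, 25.8 and 38.5. For Se_LD the values were 31.5, 41.5, 29.3, 30.3 and 39.2. In Se_HD mice they were 40.4, 52.6, 43.6, 36.8 and 35.3. Se_HD had the highest mean, 41.7 ± 6.87, and HD the lowest, 31.4 ± 14.2, which became 37.5 ± 5.34 (SD, n = 4) without library 21. The log2 difference of HD from Ctr was -0.21 (95% interval -0.95 to 0.53) and turned to 0.23 without that library. That of Se_HD from HD was 0.59 (-0.01 to 1.19, limma, adjusted p = 0.610), and it was 0.15 without library 21. Neither passed the rule.

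**Figure D2:**
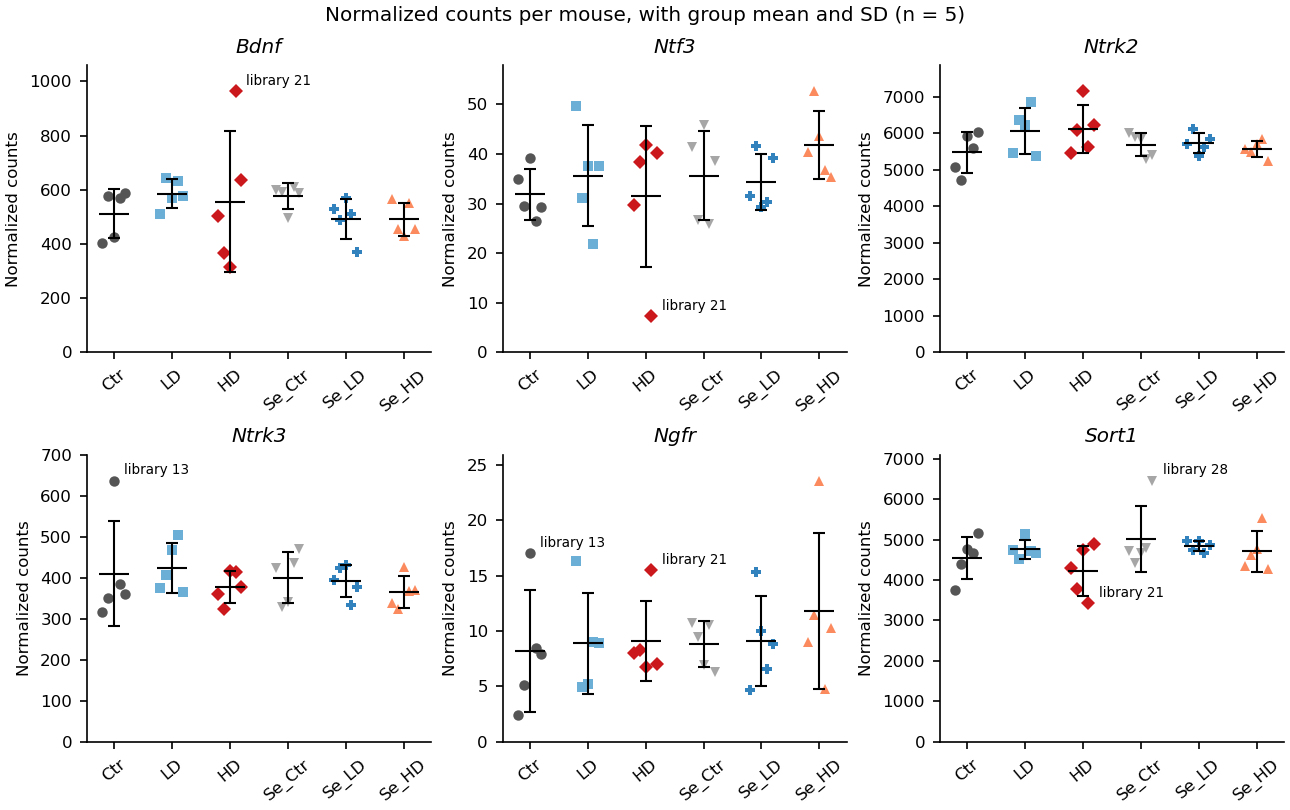
Normalized counts of each gene in every mouse by group, with the group mean and SD (black, n = 5) and axes that start at 0. HD library 21 was highest for Bdnf and lowest for Ntf3 and Sort1, Ctr library 13 was highest for Ntrk3 and Se_Ctr library 28 for Sort1, and the other mice of the groups overlapped.

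The ligands were inversely related from mouse to mouse, with wide scatter. Over the 30 mice, the log2 levels of Bdnf and Ntf3 had Pearson's r of -0.66 and Spearman's rho of -0.54. Without HD library 21, r was -0.46 and rho -0.49, and without the 2 mice farthest from the median of Bdnf, HD libraries 15 and 21, r was -0.45 over 28. With the group means removed it was -0.75. Among the 15 pairs of members this was the strongest by r, and the next were Ntf3 with Sort1 (0.43, 0.06 without library 21) and Ntrk3 with Sort1 (0.37, 0.47 without it), whose rho of 0.55 was slightly the larger in size. The points of each pair share a library and its size factor, and the values are given as a description.

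**Figure D3:**
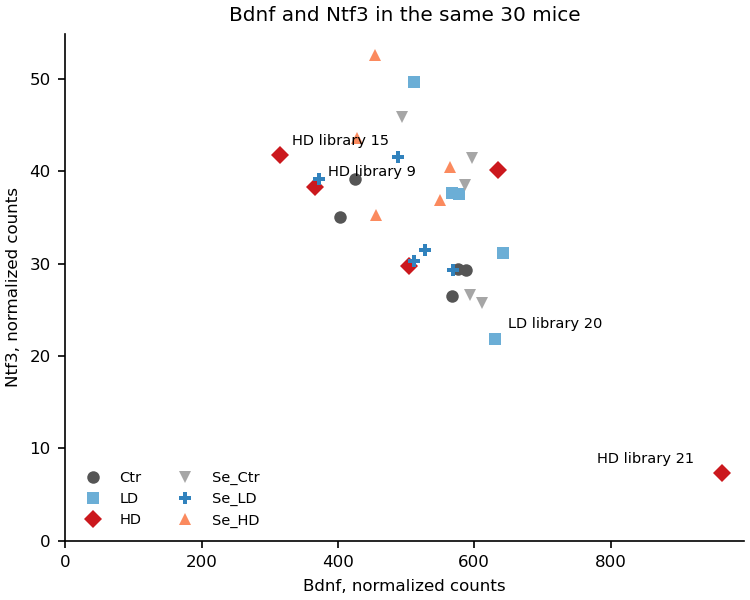
Normalized counts of Bdnf (horizontal) and Ntf3 (vertical) in each of the 30 mice, by group. HD library 21, with 963 for Bdnf and 7.35 for Ntf3, lies alone at the lower right, and the remaining mice scatter widely around a falling trend (r of -0.46 on log2 levels).

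Ntrk2, which encodes TrkB, was the steadiest of the receptors, with a coefficient of variation of 8.58% over 30 mice. Ctr mice had 5083, 4731, 5925, 5608 and 6035 normalized counts of Ntrk2. Those of LD mice were 5474, 6370.4, 6221, 6859.7 and 5385. The HD mice had 5475, 6103, 7150.1, 5631 and 6238. In HD mice, 3 of 5 lay above every Ctr mouse, and the lowest HD mouse lay above 2 of the 5 Ctr mice. The Se_Ctr values were 6013, 5888, 5839, 5306 and 5418. Se_LD mice had 5703, 6127, 5392, 5616 and 5846. Se_HD mice had 5576, 5490.4, 5699.9, 5835 and 5245. The selenium groups lay within 5245 to 6127, a narrower band than the 4731 to 7150.1 of the other groups. Compared with Ctr, the log2 difference was 0.15 in LD (-0.08 to 0.37, 95% interval) and 0.16 in HD mice (-0.07 to 0.39, exact permutation p = 0.127), and 0.01 and -0.03 in Se_LD and Se_HD against Se_Ctr. The difference between the HD effects with and without selenium, -0.19 (-0.43 to 0.05), did not pass, and it was -0.27 and passed the unadjusted contrast when the 3 libraries that stood apart were left out (limma, adjusted p = 0.933). The 10 astrocyte markers, Gfap not among them, summed to 50937 to 60607 normalized counts in Ctr, 47188 to 61600.5 in LD and 59216 to 67252 in HD mice, and to 51156 to 54241 in Se_HD mice. Their part in the Ntrk2 values was not tested.

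Ntrk3, which encodes TrkC, the receptor of neurotrophin 3, was set apart by 1 Ctr mouse. The Ctr values of Ntrk3 were 318, 352, 638, 386 and 361. LD mice gave 376, 408, 468, 506 and 366. For HD mice they were 362, 323, 417, 415 and 378. Ctr library 13 had the highest value of all 30 mice, and the other 4 Ctr mice lay at or below 386. Se_Ctr mice gave 424, 329.5, 341, 437 and 471. The Se_LD mice had 395, 423, 432, 335 and 378. Values of 338, 325, 427, 367 and 371 were found in Se_HD mice. The groups overlapped throughout. LD differed from Ctr by a log2 difference of 0.08 (95% interval -0.23 to 0.40), and without Ctr library 13 the difference was 0.25 and still did not pass the rule. That of HD turned from -0.08 (-0.39 to 0.24) to 0.09 without this library.

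Ngfr, which encodes p75NTR, was at the edge of detection. Ctr mice had 2.41, 5.11, 17.0, 8.50 and 7.89 normalized counts. LD mice had values of 16.3, 4.98, 5.23, 9.01 and 8.90. In HD mice Ngfr was at 8.04, 8.33, 6.73, 15.5 and 6.98. HD library 21, at 15.5 from 19 reads, lay apart from the other 4 HD mice, which spanned 6.73 to 8.33. Se_Ctr mice were at 10.8, 9.50, 6.92, 10.5 and 6.27. Values in Se_LD mice were 4.63, 15.3, 10.0, 6.59 and 8.87. The Se_HD mice gave 8.98, 11.4, 23.6, 4.72 and 10.2. The highest of all 30, 23.6 from 26 reads in Se_HD library 18, stood beside a Se_HD mouse at 4.72. The log2 difference between HD and Ctr was 0.29 with an interval of -0.58 to 1.15, and that between Se_HD and Se_Ctr was 0.25 (-0.48 to 0.98). The spread between Ctr mice (coefficient of variation 67.1%) and between Se_HD mice (59.9%) exceeded the counting error given above. Single mice moved both: the HD difference was 0.58 without Ctr library 13, 0.09 without HD library 21 and -0.02 without Ctr library 1. The Se_HD difference ranged from -0.02 to 0.50 with each mouse left out, the lowest without Se_HD library 18 and the highest without Se_HD library 24.

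Sort1, which encodes sortilin, had its lowest mean in HD and its highest in Se_Ctr mice, where 1 mouse lay far above the others. In Ctr mice Sort1 had 3759, 4400, 4757, 4665 and 5164 normalized counts. The LD mice had 4755, 4532, 5139, 4711 and 4663. HD mice gave 4310.2, 3772, 4734, 3425 and 4887. Library 21 was the lowest of the 30 mice here as for Ntf3. Se_Ctr mice had values of 4727, 4418, 4664, 4794 and 6462. In Se_LD mice Sort1 was at 4964, 4751, 4970.0, 4671 and 4857. The Se_HD mice were at 4349, 4611, 4769, 5538 and 4271. Library 28, at 6462, was the highest of all, whereas the 5 Se_LD mice had a coefficient of variation of 2.71%. The mean was 4226 ± 622 in HD and 5013 ± 822 in Se_Ctr mice, and 4426 ± 499.7 and 4650.5 ± 164 (SD, n = 4) without libraries 21 and 28. HD was below LD by a log2 difference of -0.18 (95% interval -0.41 to 0.05, exact permutation p = 0.119) and 3 of 5 HD mice lay below all LD mice, and without library 21 the difference was -0.11. That of HD from Ctr was -0.11, and -0.04 without library 21. Selenium over all doses gave 0.11 (-0.01 to 0.23), and 0.06 without the 3 libraries.

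Over all 13 comparisons of the 6 genes, 2 of 78 tests passed the rule, both for Bdnf in the selenium groups. In LD against Ctr 0 of 6 members passed, where 1.46% of the 20031 genes tested did, and in HD against Ctr 0 of 6, where 5.09% did. The other backgrounds were 4.49% for HD against LD, 2.47% for Se_HD against Se_LD, 1.30% for Se_Ctr against Ctr, 0.730% for Se_LD against LD and 3.59% for Se_HD against HD. They were 4.77% for the difference between the HD effects with and without selenium (contrast alone), 4.21% for HD and 0.823% for LD with both pooled, and 2.30% for selenium over all doses, with 0 of 6 members passing in each. With the limma contrast alone at an unadjusted p under 0.05, the same 2 of 78 passed and no other, and with edgeR and with DESeq2 these 2 contrasts had a p under 0.05 while 0 of 78 passed the full rule. The lowest limma p adjusted over all genes was 0.610, that of Ntf3 in Se_HD against HD. By exact permutation tests, including those pooled with and without selenium, 0 of 66 had a p under 0.05. The smallest p that 5 mice against 5 can give is 0.00794. For HD against Ctr they ran from -0.07 to 0.39 on the log2 scale for Ntrk2 and from -0.34 to 0.12 for Sort1, but from -0.95 to 0.53 for Ntf3 and from -0.58 to 1.15 for Ngfr. Without the 3 libraries that stood apart, 5 of 78 contrasts had an unadjusted p under 0.05 and none passed the F test as well, the Ntrk2 difference given above being judged by its contrast alone.

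**Figure D4:**
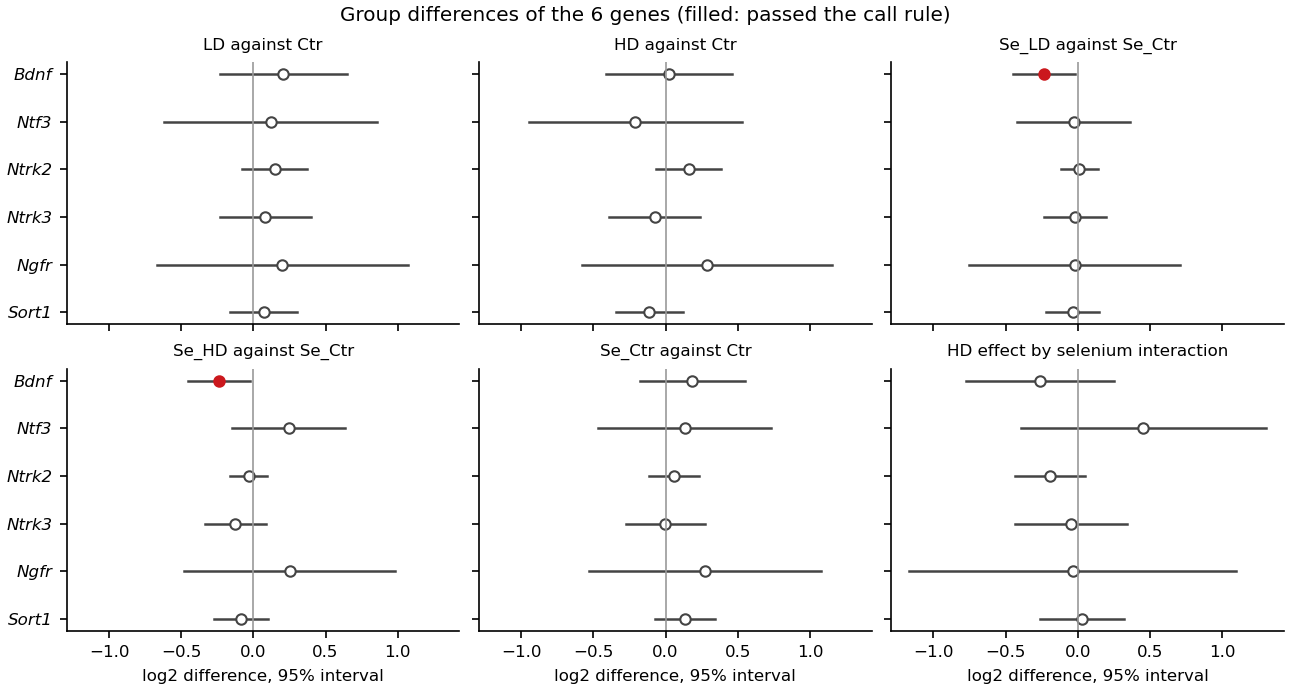
Log2 differences (points) with 95% intervals (lines) of the 6 genes in 6 of the comparisons, with filled points where the F test and the contrast both passed. Only Bdnf in Se_LD and in Se_HD against Se_Ctr is filled, and the intervals of Ngfr and Ntf3 are the widest.

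HD library 21 also held extreme values of some other receptors of the family. Of 9 further ligands and receptors with a mean of at least 10, it was the highest of the 30 mice for 3 and the lowest for 1. The shares over all 14296 genes with such a mean were 12.9% and 11.1%. The highest were Sorcs1, Sorcs2 and Sorcs3, which are sortilin-related receptors. The lowest was Lingo1, a coreceptor of p75NTR in the Nogo receptor complex. Sorl1, also a sortilin-related receptor, was at 3241 in library 21, within the 2255 to 4038 of the other mice. Sorcs1 was at 264 normalized counts in this mouse and at 112 to 143 in the other HD mice. Sorcs2 was at 665, against 388 to 489.9, and Sorcs3 at 616, against 358 to 478. Among all other mice the highest values were 173 for Sorcs1, 522 for Sorcs2 and 608 for Sorcs3. The lowest Lingo1 value among them was 1059.5, against 1053 in library 21. Sort1, the founding member of that receptor family, went the other way in the same mouse, at 3425 against 3772 to 4887. Ntf5, which encodes neurotrophin 4, was at 0 in 4 mice with a mean of 1.78 normalized counts. Lingo1 fell in HD against LD by 0.39 on the log2 scale (limma, adjusted p = 0.486), and the call was lost without library 21 (-0.34) and in 6 other fits that left out 1 mouse. Beside these values, all 7 of the reactive astrocyte markers with a mean of at least 10 and 7 of 12 microglia markers were highest in library 21, with summed levels of the full lists of 44756 and 10207 normalized counts against 2606 to 3159 and 3185 to 3467 in Ctr mice. Gfap alone was at 32820.3 there, at 4080.2 to 12446 in the other HD mice and at 1430.0 to 1988 in Ctr mice. Excitatory neuron markers summed to 32103 in library 21, below the 47764 to 51997 of Ctr mice. Striatum markers summed to 1716 there, against 424 to 719 in Ctr mice, with 2 of 7, Drd1a and Penk, the highest of the 30 mice. What part these cell markers have in the values of library 21 was not tested.

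**Figure D5:**
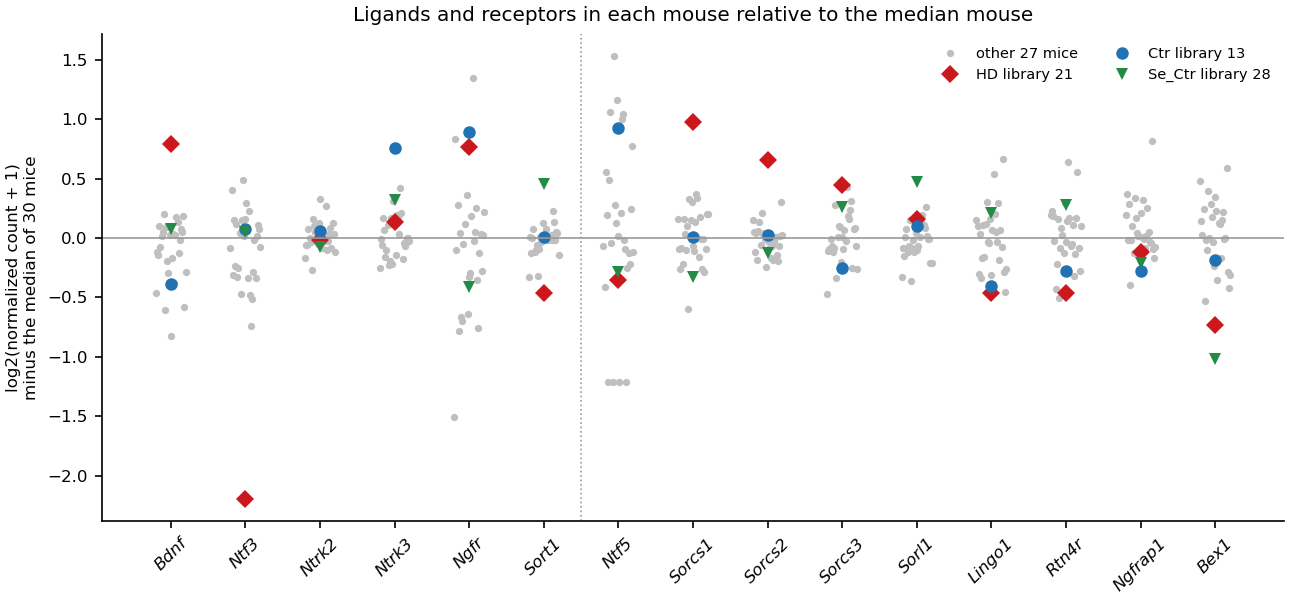
Log2(normalized count + 1) minus the median over 30 mice for the 6 members (left of the dotted line) and 9 further ligands and receptors, 1 point per mouse. HD library 21 (red) lies above all other mice for Bdnf, Sorcs1, Sorcs2 and Sorcs3 and below them for Ntf3, Sort1 and Lingo1.

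Of the genes that process the ligands, Serpini1, Pcsk2 and Pcsk1 were lower in HD than in Ctr mice. Of the 11 further ligands and receptors 0 passed in LD and 0 in HD against Ctr, where 1.46% and 5.09% of all genes did, counts near the background. Of 20 tested genes that cut, store or shed neurotrophins and their receptors, 3 fell and 0 rose in HD against Ctr (15% against 5.09% of all genes), with a median log2 difference over the list of 0.06 against 0.01 over all genes. Serpini1, which encodes neuroserpin, the inhibitor of tissue plasminogen activator, fell from 2639 ± 246 normalized counts in Ctr to 1891 ± 484 in HD mice, by 0.51 on the log2 scale (SE 0.14, limma, adjusted p = 0.160). Pcsk2, a prohormone convertase of secretory granules, fell from 2132 ± 123 to 1669 ± 239, by 0.36 (SE 0.10, adjusted p = 0.176). Both were lowest of the 30 mice in library 21, and without it the differences were -0.40 and -0.28 and still passed, as they did with every other mouse left out in turn. Pcsk1, the related convertase, fell by 0.62 (SE 0.20, adjusted p = 0.271), and the call was lost without HD library 3 and without the 3 libraries that stood apart (-0.51). None passed after adjustment with limma or edgeR, while DESeq2 gave an adjusted p of 0.0474 for Pcsk2. In the selenium groups 0 of 19 tested genes of this list passed in either dose, where 1.46% and 2.06% of all genes did, so the count is near the background. The HD effects with and without selenium differed by the unadjusted contrast for Serpini1 (0.50), Pcsk1 (0.57) and Pcsk2 (0.31), with an adjusted limma p of 0.997 for each. Of these 3, Pcsk2 no longer passed without HD library 21 (0.23) or Se_HD library 18, and Pcsk1 without 12 of the 20 mice, one at a time, HD library 21 among them (0.51). Without the 3 libraries that stood apart neither Serpini1 (0.35) nor Pcsk1 (0.29) passed this contrast. Plau, the urokinase that can activate plasmin, fell by 0.56 in LD against Ctr, with 64.6 ± 13.9 in Ctr and 43.9 ± 11.6 in LD mice (adjusted p = 0.999), a call lost without any 1 of Ctr libraries 1, 19 and 25 and LD libraries 8 and 20. Cell markers moved with the HD group as well: summed levels were 5438 to 6559 normalized counts in Ctr and 4290.1 to 5391 in HD mice for the 9 inhibitory neuron markers, 2606 to 3159 and 5558 to 44756 for the 9 reactive astrocyte markers and 3185 to 3467 and 4113 to 10207 for the 12 microglia markers. Each of these 3 lists was without overlap, while the sums of all other cell marker lists overlapped between Ctr and HD mice. Astrocyte markers, for instance, summed to 50937 to 60607 in Ctr and 59216 to 67252 in HD mice. Excitatory neuron markers summed to 47764 to 51997 in Ctr and 32103 to 53651 in HD mice. The part of cell markers in the lower Serpini1, Pcsk2 and Pcsk1 values was not tested.

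Downstream of the receptors, few genes passed, in counts to be read against the 1.46% of all genes in LD against Ctr, 5.09% in HD against Ctr, 2.06% in Se_HD against Se_Ctr and 3.59% in Se_HD against HD. Of 41 adaptors and signal relays of Trk receptors, 1 fell in LD against Ctr, Rps6ka2, a ribosomal S6 kinase, with a log2 difference of -0.34 (limma, adjusted p = 0.999). The call was lost without any 1 of Ctr libraries 1, 7, 13 and 25 and LD libraries 8 and 20. Of 12 adaptors and death signals of p75NTR, 0 passed in either dose against Ctr, and Mapk9, the kinase JNK2, was 0.19 higher in Se_HD than in HD mice on the log2 scale (adjusted p = 0.440), a call lost without HD libraries 3, 9 and 15, each in turn. Of 15 regulators of Bdnf transcription, 0 passed in LD or HD against Ctr and 1 in Se_HD against Se_Ctr: Npas4, an activity-induced factor that binds Bdnf promoters, fell by 0.54 (SE 0.20, adjusted p = 1.00), with 158 to 295 normalized counts in Se_Ctr and 99.0 to 170.0 in Se_HD mice, and the call was lost without Se_HD library 18. Without the 3 libraries that stood apart, Npas4 also passed as lower in LD, HD and Se_Ctr against Ctr, as 1 of 15 each. Ctr library 13, among those 3, held the lowest Npas4 value of the 30 mice, in a Ctr range of 56.1 to 540. Leaving it out raises the Ctr mean in each of these comparisons. The shares of all genes that passed in that setting are given in the next paragraph.

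The number of activity and BDNF responsive genes that passed depended on single mice. Of 27 such genes 1 fell in LD against Ctr (Crem, -0.39) and 1 in HD against Ctr (Nr4a2, a nuclear receptor of the immediate early class, -0.70, adjusted p = 0.343), a share of 3.70% in each against 1.46% and 5.09% of all genes, and the median log2 difference over the list was -0.06 and -0.30 against 0.00 and 0.01 over all genes. The Nr4a2 call was lost without HD library 21 (-0.49), HD library 3 or Ctr libraries 1 and 25, and the Crem call in 8 of 10 fits that left out 1 mouse. Ctr library 13 was the lowest of the 30 mice for 12 of the 27 genes, Arc, Fos and Nr4a1 among them. It was the lowest for 5.34% of the 14296 genes with a mean of at least 10. Without the 3 libraries that stood apart, 8 genes fell in LD against Ctr (Arc, Crem, Dusp1, Dusp5, Egr1, Nr4a1, Nr4a2 and Per1) and 7 in HD against Ctr (Arc, Dusp1, Dusp5, Egr1, Fos, Nr4a1 and Nr4a2), with medians of -0.29 and -0.40, where 2.03% and 4.47% of all genes passed. In the same setting 3 genes of the list (Dusp1, Dusp5 and Per1) were also lower in Se_Ctr mice, labelled without mercury, than in Ctr mice, with a median of -0.24 and 1.57% of all genes passing. Without Ctr library 13 alone, 4 fell in LD and 11 in HD against Ctr (1.84% and 5.86% of all genes), and without HD library 21 alone 0 passed in HD against Ctr (3.63%). The setting without 3 libraries, and the genes named for it and for single libraries, were chosen after the values had been seen. Bdnf did not share that direction in LD mice, at 0.15 without the same libraries, and was at -0.27 in HD mice. In HD library 21, which had the most Bdnf, 5 of the 27 were the highest of all mice (Scg2, Gadd45b, Inhba, Nptx2 and Npy) and 6 the lowest (Per1, Egr3, Sst, Egr1, Nr4a2 and Fosb). The shares over the same 14296 genes were 12.9% and 11.1% in that library. Npy, neuropeptide Y, was at 925 normalized counts there against 110.1 to 305 in the other 29 mice.

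Among 11097 genes averaging 50 normalized counts or more, the patterns most like each member over the 30 mice were found by Pearson's r on log2 levels. For Bdnf these were Scg2 (0.81), Prss23 (0.81) and Trib2 (0.79), and they stayed at 0.72, 0.72 and 0.68 without HD library 21. Those of Ntf3, Gm1337 (0.78), Efnb3 (0.77) and Prosapip1 (0.76), rested largely on that mouse and were 0.19, 0.49 and 0.16 without it. Ntrk2 ran with Rbm25 (0.85), Zc3h13 (0.83) and Nrd1 (0.82), and Sort1 with Dpy19l3 (0.87), 1110018G07Rik (0.87) and Spnb1 (0.85). For Ntrk3 they were Kcnj6 (0.74), Vps13c (0.73) and Grin2a (0.73), at 0.67, 0.47 and 0.43 without Ctr library 13 and LD library 20, the 2 mice farthest from the median of Ntrk3. For Ngfr they were Fzd7 (0.61) and Akap9 (0.57). The genes were picked as the highest of many, and all levels of a mouse share its library, so the values only describe these 30 libraries.

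Set against cell markers in the same way, Sort1 was the member with the largest r to a marker list. Its r over 30 mice was 0.55 with the mean log2 level of the dentate gyrus markers, 0.53 with the excitatory neuron markers and -0.67 with the astrocyte markers, and 0.51, 0.36 and -0.54 without HD library 21. With the microglia, reactive astrocyte and endothelial markers it was -0.63, -0.57 and -0.55, and -0.46, -0.32 and -0.56 without that library. Se_Ctr library 28, the mouse with the most Sort1, was the highest of 30 for 5 of 7 dentate gyrus, 3 of 6 CA3 and 3 of 7 excitatory neuron markers. Its share over the 14296 genes with a mean of at least 10 was 7.52%. Bdnf had r of 0.28 with the reactive astrocyte markers over 30 mice and -0.49 without library 21, and Ntf3 -0.64 and 0.23, so that the sign of both depended on 1 mouse. Ntrk2 was at 0.15 with the astrocyte markers. The part of tissue makeup in any group difference was not tested.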

How the data were processed

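Hippocampal RNA of 30 mice was sequenced as 1 stranded mRNA library per mouse. Per the submitters' processing notes, reads were trimmed with Trim Galore 0.4.2, aligned with HISAT2 to NCBIM37 and counted per gene with featureCounts, and the strand setting is not given in the sources used here. The deposited signal values are read counts that the authors divided by DESeq2 size factors after removing genes with low row sums. Whole reads were recovered for 100% of values (tolerance 0.01 reads), and the number of reads, 5768208 to 11510521 per library, sets the counting error. 0 columns were left unused, and 21326 of 21412 identifiers matched a symbol.

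Differences were tested with limma 3.58.1 (R 4.3.3, moderated contrasts with an intensity trend) on log2(normalized count + 1). Comparisons among Ctr, LD and HD used these 15 libraries (20031 genes), those among the selenium groups the other 15 (19679 genes), and all others the 30 together (21383 genes). Genes needed normalized counts that summed to at least 10 over the libraries of the fit. P-values were adjusted over all genes by Benjamini-Hochberg. Single genes were also tested by exact two-sided permutation of mice. Alternatives were another pseudocount, filter, trend or fit, quantile normalization, recomputed size factors, edgeR 4.0.16 and DESeq2 1.42.0 on recovered reads, a library set term, each mouse left out and 3 libraries left out together, the last chosen after seeing the data. Scripts were tested on simulated data. Levels and figures used Python 3.11.15, pandas 2.3.3, numpy 2.4.6, scipy 1.17.1 and matplotlib 3.10.9. Relations between genes are Pearson's r over libraries.

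The members and lists were chosen with earlier results of these data known. All 6 members are named. From each pathway list up to 4 genes that passed and averaged 10 normalized counts or more were eligible per comparison, lowest p first, and for likeness the 3 genes with the highest r among those averaging 50 or more. Each group holds 5 individual mice, and library numbers serve as names, except in the alternative fit with a library set term. A few genes that these rules name are not reported here.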

Additional observations from a re-analysis of the deposited data

Results flagged for a closer look

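In 4 of the 36 sets of 5 values (6 genes in 6 groups), 1 mouse lay apart from the rest of its group by Dixon's ratio, the gap to the nearest mouse divided by the range of the group, with a critical value of 0.71. Chance gives about 1.8 of 36. For Bdnf the low Se_Ctr library 16 had a ratio of 0.796. For Ntrk3 the high Ctr library 13 had 0.785, for Ngfr the high HD library 21 had 0.817, and for Sort1 the high Se_Ctr library 28 had 0.816. Bdnf and Ntf3 in HD library 21 did not reach the critical value, since the other HD mice were themselves spread.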

How the results depend on the processing

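The 2 calls, Bdnf in Se_LD and in Se_HD against Se_Ctr, were sensitive to the processing. The count of members that passed went from 1 to 0 in both comparisons with a pseudocount of 0.1, a mean of at least 10 normalized counts, limma without trend, edgeR, DESeq2, all 30 libraries in 1 fit, and the 3 libraries that stood apart left out. With each mouse left out in turn the count ranged from 0 to 1 in both. For the difference between the HD effects with and without selenium, the count went from 0 to 1 (Ntrk2) with the 3 libraries left out. Over all 78 gene and comparison pairs, 125 of 2069 alternative values had the opposite sign, none of them of a called difference, and the lowest adjusted p was 0.375. Under the filter on the mean, 13 values of Ngfr were not tested. The labels give no replicate number shared by the groups, so no pairing by number was made. A fit with the library set (6 consecutive library numbers, 1 mouse of each group) as a block was run, and the counts stayed at 1 in both selenium comparisons and at 0 in the other 11. Depth limits Ngfr, with 2 to 26 reads per library, and Ntf3, with 9 to 69. The cause of these changes was not tested.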
